A study of Mus musculus with 8 samples.

Results

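The genes described here are the 9 granzymes Gzma, Gzmb, Gzmc, Gzmd, Gzme, Gzmf, Gzmg, Gzmk and Gzmm and the perforin gene Prf1, taken by name from the expression features, 10 of 32285 genes. Their transcripts were counted by CROP-seq, single-cell RNA-seq in which the guide RNA of each cell is read out beside its transcriptome. The cells were CD8+ T cells of OT-I mice, whose transgenic T cell receptor recognises an ovalbumin peptide, on a Rag2 background and crossed with Rosa26-Cas9 mice, in which the nuclease is expressed constitutively. After transduction with a lentiviral library of guides to metabolic genes they were selected on the vector marker CD90.1 and were injected into Rosa26-Cas9 recipients with orthotopic KPC_OVA tumours, a mouse pancreatic ductal adenocarcinoma line that expresses ovalbumin. Tumours were taken 7 days after transfer from recipients given anti-PD-1 (3 libraries, replicates 1, 2 and 3) or control IgG (1 library), and animals were pooled. Values below are given in the order anti-PD-1 replicate 1, 2, 3 and IgG. All cells expressed Cas9 and all analysed cells held a guide, also those with a nontargeting guide (sgNT).

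Cytotoxic T cells kill by releasing granules onto a bound target cell. Perforin inserts pores into the target membrane, and granzymes, a family of serine proteases, enter through them and cleave proteins inside. Granzyme B cuts after aspartate and activates caspases, granzymes A and K cut after basic residues, and granzyme M cuts after methionine or leucine. Granzymes C to G are encoded next to Gzmb in rodents, and their substrates are less well known.

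After filtering, 23059 cells with exactly 1 called guide remained, 2535, 2597, 6432 and 11495 per library. Depth differed between libraries, with a median of 16829, 16325, 12084 and 6329 UMIs (unique molecular identifiers, each marking 1 captured transcript) per cell, so shares of cells with a UMI are given after each cell was thinned at random to 2000 UMIs, which left out 163 IgG cells and 0 others. The titles of replicates 1 and 2 share a name, and no label names a batch. The methods of the study speak of batches and separate experiments without saying which library belongs to which. Every kept cell held UMIs of the T cell list (Cd3d, Cd3e, Cd3g, Cd8a, Cd8b1 and Trac), which summed to 5825 to 6377 CPM (UMIs of the genes per 1000000 UMIs of all genes, over the cells concerned). Of all 56359 barcodes, 7 lacked them and held at least 10 UMIs of lists of non-T cells. These were the B or plasma, myeloid, epithelial tumour, acinar, fibroblast and endothelial lists. Of the 7 barcodes, 3 reached 2000 UMIs and 1 held UMIs of Gzma and Gzmb, so no share from free RNA could be set. The B or plasma cell list summed to 55.6 to 196 CPM and the myeloid list to 8.18 to 11.3. The gamma-delta T list, most of it UMIs of the T cell receptor gene Trdc, summed to 151, 153, 130 and 106 CPM, and 225, 242, 282 and 63 cells held at least 10 of its UMIs. Libraries shared 3 to 18 cell barcodes per pair.

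Granzyme and perforin transcripts made up 0.313%, 0.324% and 0.573% of the UMIs in the anti-PD-1 libraries and 0.333% in IgG. Gzma and Gzmb held 73.4% to 75.6% of these UMIs. Gzmb stood at 1500.1, 1632 and 2036 CPM and at 1159.9 in IgG. Gzma stood at 865, 759.9, 2292.5 and 1287. Gzmb was above Gzma in replicates 1 and 2 and below it in replicate 3 and in IgG, so that the order of the leading pair was not the same in all libraries.

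Prf1 followed at 536, 532, 777 and 472 CPM, below Gzma and Gzmb in 4 of 4 libraries. Gzmk was at 133, 144, 157 and 102. Prf1 exceeded Gzmk in each library with no overlap of their ranges. Since 3′ UMIs count molecules, levels were compared between genes without division by length.

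The genes next to Gzmb were lower and varied more between libraries. Gzmc was at 27.7, 47.0, 169 and 153 CPM. Gzmf was at 35.1, 64.0, 171 and 93.5. Both were lowest in replicates 1 and 2, and neither was above the other in all 4 libraries.
Gzmd was at 15.3, 34.5, 63.9 and 35 CPM, and Gzme at 10.1, 14.2, 24.8 and 17.1. Gzmg ranged from 0.922 in replicate 1 to 38.8 in replicate 3, with 9.24 in replicate 2 and 9.83 in IgG. Gzmd was above Gzme in 4 of 4 libraries. Gzmm, the granzyme that cuts after methionine, was at 4.40, 3.92, 2.89 and 5.37 CPM and was the member lowest in replicates 2 and 3 and in IgG.

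**Figure D1:**
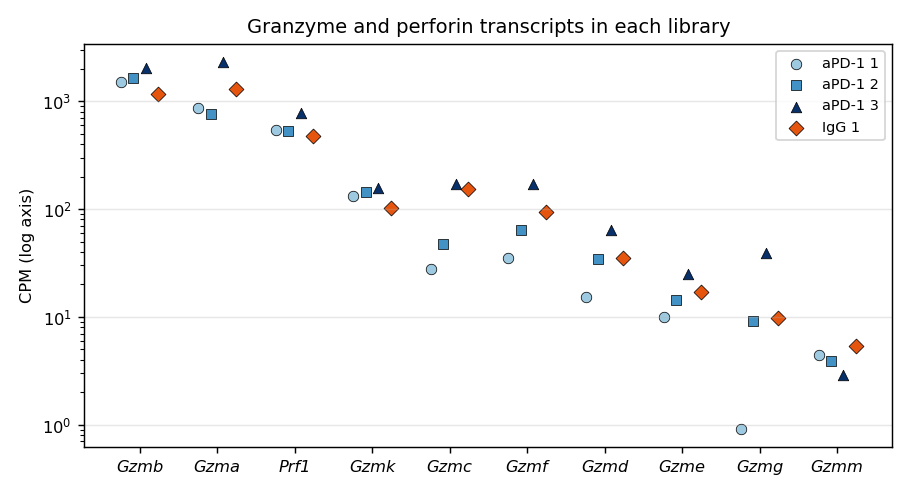
Level of each granzyme and of Prf1 in CPM on a log axis, 1 point per library (blue, 3 anti-PD-1 libraries; orange, IgG). Gzmb, Gzma and Prf1 lie between 472 and 2292.5 in every library, and Gzmg spans 0.922 to 38.8.

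In cells thinned to 2000 UMIs, Gzmb was detected most often, in 55.9%, 56.8%, 63.7% and 49.2% of cells (exact 95% binomial intervals 53.9 to 57.8, 54.9 to 58.8, 62.6 to 64.9 and 48.2 to 50.1, which cover counting error only). Prf1 was detected in 39.0%, 39.2%, 48.5% and 36.9% and Gzma in 28.2%, 29.0%, 40.1% and 28.2%. Gzma was thus found in fewer cells than Prf1 although its level was higher. In replicate 1 without thinning, 82.2% of cells held a Gzmb UMI, 79.1% a Prf1 UMI and 56.3% a Gzma UMI. Gzmk was detected in 21.4%, 23.8%, 25.3% and 17.3% of thinned cells. Gzmc was detected in 0.986%, 1.62%, 4.79% and 4.47% and Gzmm in 1.07%, 0.770%, 0.482% and 0.953%. None of the 10 genes was detected in 22.4%, 21.9%, 15.2% and 27.4% of cells at this depth, and no cell held all of them.

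Levels also differed with the UMI count of the cell. In the fifth of cells with the fewest UMIs, Gzmb was at 928, 1392, 1331 and 935 CPM, and in the fifth with the most at 1914, 1872, 2301 and 1322. Prf1 was at 303, 389.8, 544 and 391 in the former and at 645, 610.5, 812 and 502 in the latter. Gzmk went the other way, from 175, 210.4, 187 and 126 to 111, 119, 139 and 90.1. Gzmb and Prf1 were higher, and Gzmk lower, in the deepest cells of all 4 libraries.

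Within cells, Gzmb was found together with Prf1 and with Gzma more often than Gzma with Prf1. Correlations were computed over the cells of each library on thinned, log-normalised counts and are a description, since the cells share their library. Gzmb and Prf1 gave a Pearson r of 0.35, 0.38, 0.38 and 0.37, and Gzma and Gzmb of 0.30, 0.31, 0.33 and 0.32. Gzma and Prf1 gave 0.06, 0.05, 0.07 and 0.09. Gzmb and Prf1 were both detected in 27.2%, 28.3%, 36.7% and 24.4% of cells, where the product of their separate shares is 21.8%, 22.3%, 30.9% and 18.1%. For Gzma with Prf1 the joint shares were 11.9%, 12.1%, 20.9% and 12%, near the products of 11%, 11.4%, 19.5% and 10.4%. For Gzmk with Prf1 they were 7.73%, 9.36%, 12.6% and 7.02% against 8.36%, 9.32%, 12.3% and 6.4%. The 3 most abundant genes therefore did not all vary together.

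**Figure D2:**
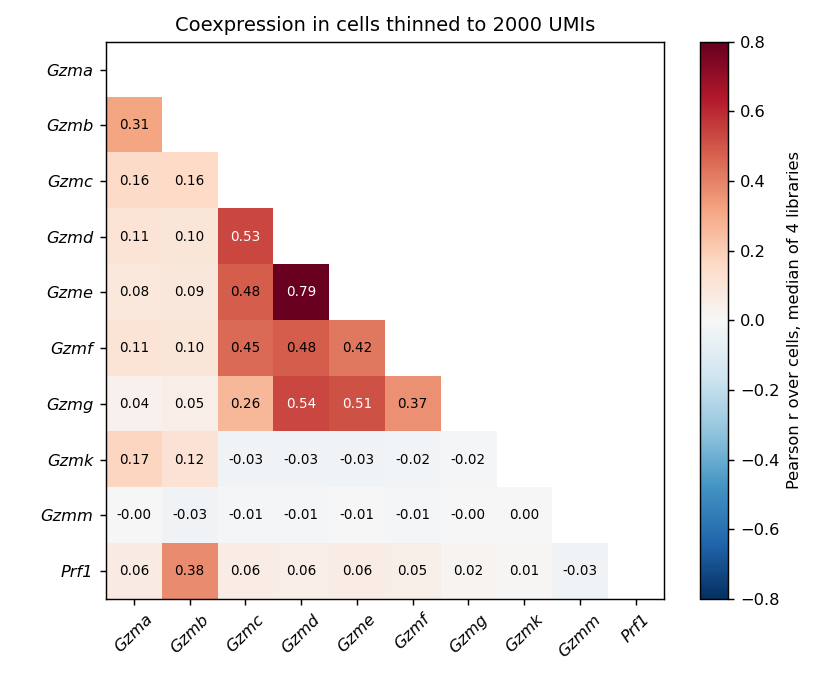
Pearson r between members over cells thinned to 2000 UMIs, as the median of the 4 libraries. Gzmb with Prf1 (0.38) and with Gzma (0.31) stand out among the abundant genes, and Gzmd with Gzme (0.79) among the genes of the chromosome 14 cluster.

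Outside the family, each member detected in at least 10% of thinned cells was compared with the 2179 other genes detected as often, ranked by the lowest r over the 4 libraries. Prf1 was most like Tnfrsf9 (lowest r 0.24), which encodes the costimulatory receptor 4-1BB, and the chemokine genes Ccl4 (0.22) and Ccl3 (0.21). Gzmb was most like the metallothionein gene Mt1 (0.20), the galectin gene Lgals1 (0.20) and the chemokine gene Ccl5 (0.19). Gzma was most like Tmsb4x (0.16), which encodes an actin-binding thymosin, Plac8 (0.15) and Lgals1 (0.13). Gzmk was most like Ccl5 (0.15), Tmsb4x (0.13) and AW112010 (0.11). None of these values exceeded 0.24, so that all of the likenesses were weak.

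The granzymes C to G were held by few cells. The 1% of cells richest in Gzmc held 88.2%, 91.7%, 76.3% and 78.2% of its UMIs. For Gzmd, Gzme, Gzmf and Gzmg the corresponding shares were between 96.2% and 100%. Of the Gzmg UMIs, 48.9%, 32.1%, 47.1% and 36.1% came from a single cell in each library. The richest 1% held 30.9%, 26.2%, 20.2% and 27.5% of the Gzma UMIs, 14.4%, 16.3%, 15.2% and 18.3% of those of Gzmb and 12.1%, 12.5%, 11.9% and 15.9% of those of Prf1. Gzmk was the most evenly spread in each library, with 6.80%, 6.78%, 7.64% and 9.45%. A level of Gzmd to Gzmg in a group of cells can accordingly be set by a few cells.

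**Figure D3:**
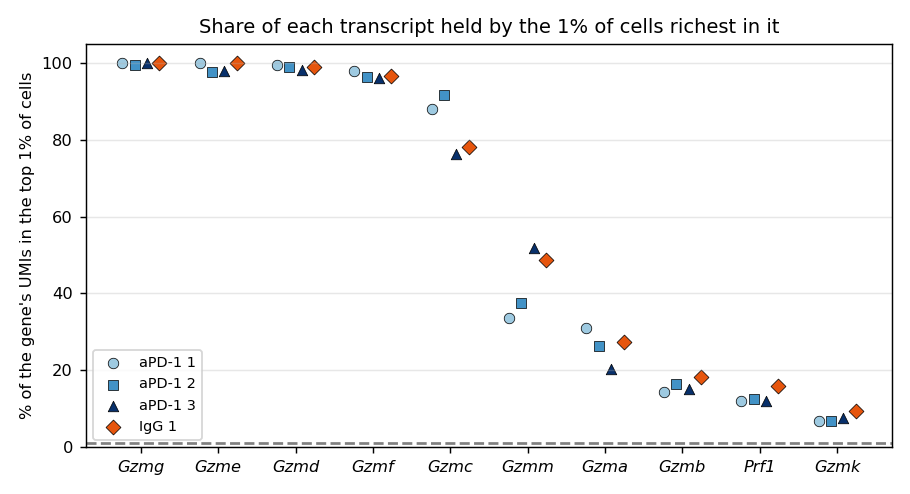
Share of each gene's UMIs in the 1% of cells richest in that gene (percent), 1 point per library, with a dashed line at an even spread. Gzmc to Gzmg lie between 76.3% and 100%, and Gzmk between 6.78% and 9.45%.

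Cells with at least 10 UMIs of Gzmc to Gzmg together numbered 23, 34, 204 and 236, or 0.907%, 1.31%, 3.17% and 2.05% of cells, and held 92.7%, 94.7%, 95.8% and 92.6% of the UMIs of these genes. Up to 2.75%, 6.35%, 19.0% and 12% of the transcripts of a single such cell belonged to them. The cells carried 20, 31, 130 and 150 different guides, with at most 2, 3, 4 and 5 cells on the same guide, so that they were spread over the guide library. Within them, Gzmc was detected in 91.3%, 79.4%, 96.6% and 97.5%, Gzmf in 56.5%, 73.5%, 49.0% and 52.1% and Gzmg in 13%, 38.2%, 10.3% and 10.6%. Most of these cells thus held Gzmc, with the other genes in smaller shares of them.

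The same cells, which were picked by members and are given as a description, had a median of 24983, 21567, 17555 and 7605 UMIs against 16769, 16263, 11936 and 6305 in the others. Gzma was at 6849, 3013, 9428 and 7856 CPM in them, against 793, 722, 1973 and 1118 in the others. Gzmb was at 5110.2, 4169, 5954 and 5779 against 1457, 1589, 1860.1 and 1041. Prf1 was at 792, 825, 1298 and 1315 against 533, 527, 754 and 450.3. Gzmk was lower in them in each library, at 66.0, 94.4, 88.5 and 55.0 against 134, 145, 159.6 and 103. Their T cell list summed to 5483, 5625, 5725 and 5361 CPM, against 6166, 6178, 6406 and 5837 in the others.

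Among themselves, Gzmd and Gzme varied together most closely, with r of 0.80, 0.80, 0.76 and 0.78. Gzmc and Gzmd gave 0.57, 0.67, 0.50 and 0.46, and Gzmf and Gzmg between -0.00 in replicate 1 and 0.68 in replicate 2. The coding sequences of Gzmd and Gzme are 93.3% identical, and 15.1% of the 50-base windows in the last 500 bases of each transcript also occur in the other. For Gzmf and Gzmg this share was 5.10% and 5.54%, for Gzmd and Gzmf 4.88%, for Gzmd and Gzmg 2.88%, and for the other pairs of members at most 0.222%. A read that lies wholly within shared sequence cannot be assigned to 1 gene. The length of the reads was not taken into account. The part of sequence likeness in the covariation of Gzmd with Gzme was not tested.

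Gzmb and these genes are neighbours. In GENCODE M21 (GRCm38) the stretch chr14:56117626-56262260, of 145 kb, holds 7 granzyme genes on the minus strand, of which 6 are members, in the order Gzme, Gzmd, Gzmg, Gzmn, Gzmf, Gzmc and Gzmb. Gzma (chr13:113093825-113100981) and Gzmk (chr13:113171608-113225908) lie side by side on the minus strand of chromosome 13. Gzmm (chr10:79689020-79695261) and Prf1 (chr10:61297833-61304680) lie apart on the plus strand of chromosome 10. The promoters of the genes held by few cells are shown beside that of Gzmb, because the latter gene lies in the same stretch and was found in most cells. Each sequence runs 5′ to 3′ on the minus strand from 250 bases before the RefSeq start of the gene to 50 bases after it, on GRCm38.p6, with Gzmc at chr14:56234608-56234907, Gzmd at chr14:56132544-56132843, Gzme at chr14:56120576-56120875, Gzmf at chr14:56211358-56211657 and Gzmg at chr14:56159530-56159829, and with Gzmb at chr14:56262285-56262584. The Gzmb window lies wholly before the start of that gene in GENCODE M21, at 56262260. Capitals mark a run of 20 bases that the promoters of Gzmc to Gzmg share.
Gzmc: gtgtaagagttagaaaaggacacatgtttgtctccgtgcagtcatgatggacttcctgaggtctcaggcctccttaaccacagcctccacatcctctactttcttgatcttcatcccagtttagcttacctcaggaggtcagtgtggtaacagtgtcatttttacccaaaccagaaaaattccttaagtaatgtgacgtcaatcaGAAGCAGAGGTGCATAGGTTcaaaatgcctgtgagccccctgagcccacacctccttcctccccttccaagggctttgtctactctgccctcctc
Gzmd: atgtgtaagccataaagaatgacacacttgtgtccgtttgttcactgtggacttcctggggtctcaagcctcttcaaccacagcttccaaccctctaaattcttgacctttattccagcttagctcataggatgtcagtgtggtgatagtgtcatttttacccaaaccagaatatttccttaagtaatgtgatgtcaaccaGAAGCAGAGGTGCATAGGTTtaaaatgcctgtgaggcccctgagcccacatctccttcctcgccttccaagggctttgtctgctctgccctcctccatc
Gzme: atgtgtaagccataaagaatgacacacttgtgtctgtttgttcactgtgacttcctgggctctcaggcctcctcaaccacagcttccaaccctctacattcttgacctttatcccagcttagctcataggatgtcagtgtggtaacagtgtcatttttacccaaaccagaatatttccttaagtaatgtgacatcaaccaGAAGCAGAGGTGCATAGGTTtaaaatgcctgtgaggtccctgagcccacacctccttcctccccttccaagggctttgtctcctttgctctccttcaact
Gzmf: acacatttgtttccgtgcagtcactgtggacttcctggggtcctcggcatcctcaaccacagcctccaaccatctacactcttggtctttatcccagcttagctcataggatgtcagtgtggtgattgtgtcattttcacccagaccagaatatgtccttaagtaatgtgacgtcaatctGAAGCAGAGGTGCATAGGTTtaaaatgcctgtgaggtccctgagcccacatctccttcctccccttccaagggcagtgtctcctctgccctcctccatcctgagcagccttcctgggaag
Gzmg: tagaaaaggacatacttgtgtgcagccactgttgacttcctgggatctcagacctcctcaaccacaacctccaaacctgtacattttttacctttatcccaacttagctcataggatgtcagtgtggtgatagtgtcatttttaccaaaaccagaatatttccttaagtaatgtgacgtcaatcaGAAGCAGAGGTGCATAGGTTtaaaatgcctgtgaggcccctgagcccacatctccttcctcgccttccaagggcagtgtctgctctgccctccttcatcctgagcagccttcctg
Gzmb: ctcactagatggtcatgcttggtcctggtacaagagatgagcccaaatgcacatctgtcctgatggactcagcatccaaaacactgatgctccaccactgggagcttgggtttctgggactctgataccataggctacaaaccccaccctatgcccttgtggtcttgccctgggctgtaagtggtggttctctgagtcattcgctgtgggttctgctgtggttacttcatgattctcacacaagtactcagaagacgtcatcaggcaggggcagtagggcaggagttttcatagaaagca
The run in capitals occurs in 5 of 32851 mouse promoter windows of this length, those of Gzmc to Gzmg, and begins at -45, -49, -50, -70 and -65 from the annotated start. The windows of Gzmd and Gzme were 93.4% identical, and those of the other pairs among these 5 genes 73.5% to 84.5%. The Gzmb window was 43.5% to 47.8% identical to them. It was 44.2%, 47.2% and 50% identical to those of Gzma, Gzmk and Gzmm, which lie on other chromosomes. It was thus no more like the windows of its neighbours than those of granzymes elsewhere.

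Motifs chosen after these sequences were seen were searched on both strands. TGACGTCA, the palindrome bound by ATF and CREB factors, lies a few bases before the shared run in Gzmc, Gzmf and Gzmg and occurs in 1.79% of all promoter windows. TGTGGT, a core bound by RUNX factors, is in 9 of the 10 members, all but Gzmk, and in 16.8% of all windows. TGANTCA, an AP-1 motif, is in that of Gzmb alone among members and in 7.81% of all. TTCNNNGAA, a STAT motif, is in Gzmb and Gzmm and in 8.30%. No binding was measured here.

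To see in which states of the tumour T cells the genes were used, cells were ranked in each library by 9 marker lists, none of which holds a member, and the 10% with the highest mean of a list were compared with the other 90% on counts summed per library (edgeR quasi-likelihood test with the library as a block, Benjamini-Hochberg adjusted p over all genes tested, n = 4 libraries). Each class is a range of a score and not a cell type. Between 75 and 1357 cells of a library lay within 10% of the value at the boundary, and 1 cell can be in several classes. Errors after log2 differences are the size of the difference divided by the square root of the quasi-likelihood F statistic. They are approximate. Since whole programmes move with each ranking, 27.7% to 47.3% of all genes passed an adjusted p of 0.05 in these comparisons, and counts of members are read against these shares.

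Among the 9 lists, Prf1 and Gzmb rose most in cells rich in hypoxia-induced transcripts (Bnip3, Aldoc, Egln3, Slc2a1, Ankrd37, Ero1l, Pfkfb3 and P4ha1). Prf1 was at 1538, 1297, 2154 and 1380.1 CPM in the top 10% and at 418, 441, 625 and 371 in the others. Its log2 difference was 1.82 ± 0.05 (edgeR adjusted p 1.75e-13), and the classes did not overlap. Gzmb was at 2941, 2755, 4219 and 2424 against 1330.4, 1498, 1795 and 1019, a log2 difference of 1.17 ± 0.05 (edgeR adjusted p 6.27e-11). The share of thinned cells with Prf1 was 72.0%, 66.2%, 75.9% and 63.0% against 35.3%, 36.2%, 45.5% and 34%. Detection and level of both genes thus moved in the same direction in all libraries.

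Gzma rose by 0.43 ± 0.04 and Gzmk by 0.18 ± 0.04 on the log2 scale in hypoxia-high cells, with edgeR adjusted p of 2.58e-07 and 0.0036. Gzma was detected in 28.0%, 30.4%, 40.7% and 29.8% of them and in 28.3%, 28.8%, 40.1% and 28.0% of the others, so that about the same share of cells held it. Gzmc to Gzmg rose as well, by 1.34 to 2.91, with any of them detected in 2.36%, 4.23%, 8.09% and 9.03% of hypoxia-high and 1.67%, 2.65%, 6.27% and 5.03% of other cells. Of the cells with at least 10 UMIs of these genes, 2 of 23, 6 of 34, 33 of 204 and 56 of 236 were hypoxia-high. In replicates 1 and 2 the levels in the class thus rested on few cells. Gzmf was nevertheless lower in the hypoxia-high cells of replicate 1, at 12.6 against 37.7 CPM. Gzme was slightly lower in those of replicate 2, at 13.3 against 14.3, and Gzmg in those of replicate 1, at 0.777 against 0.939 from 4 UMIs. The 2772 Gzmg UMIs in the hypoxia-high cells of replicate 3 stood against 4, 78 and 110 in the other libraries. Of these 2772, 1620 came from 1 cell, so the size of the Gzmg rise rests on few cells. Gzmm fell, by 1.45 ± 0.24 (edgeR adjusted p 0.000144). In all, 9 of 10 members rose and 1 fell, where 35.1% of all genes changed, 17.6% up and 17.4% down. The median log2 difference was 1.53 over members and 0.00 over all genes.

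Cells rich in cytokine transcripts (Ifng, Tnf, Il2, Csf2, Ccl3 and Ccl4) had more Prf1 and Gzmb and less of the other granzymes that passed the test. Prf1 was at 1021, 1073, 1483 and 1014 CPM against 479, 467, 692 and 408, a log2 difference of 1.29 ± 0.03 (edgeR adjusted p 2.81e-13). Gzmb was at 2044, 2998, 2836 and 2032 against 1435, 1467, 1939.9 and 1057, or 0.87 ± 0.07 (edgeR adjusted p 5.98e-08). Both were higher in the cytokine-high cells of 4 of 4 libraries. Gzma was at 518, 710.0, 1676 and 1059 against 906, 766, 2366 and 1314 and fell by 0.32 ± 0.07 on the log2 scale (edgeR adjusted p 0.00232), and Gzmk fell by 0.16 ± 0.06 (adjusted p 0.0378). The Gzmk call was lost without replicate 1 and without replicate 2. Gzmc to Gzmf fell, with log2 differences of -1.24, -1.97, -2.34 and -2.96, and Gzmg fell with 0, 0, 5 and 0 UMIs in the class. Any of Gzmc to Gzmg was detected in 2.36%, 3.46%, 4.20% and 2.62% of cytokine-high cells, against 1.67%, 2.74%, 6.70% and 5.74%. Their detection was thus higher in replicates 1 and 2 and lower in replicate 3 and IgG. Gzma was detected in 28.3%, 28.1%, 38.6% and 29.6% of cytokine-high cells, against 28.2%, 29.1%, 40.3% and 28.0%. Altogether 2 members rose and 7 fell, where 38.4% of all genes changed, 20.2% up and 18.2% down, with a median log2 difference of -0.78 over members and -0.03 over all genes.

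In cells rich in inhibitory receptor transcripts (the exhausted list, Pdcd1, Havcr2, Lag3, Tigit, Entpd1, Tox, Ctla4 and Cd160), Prf1 was again the member with the smallest p. It was at 1018, 923, 1716 and 1044 CPM against 496, 499, 694 and 419, a log2 difference of 1.11 ± 0.06 (edgeR adjusted p 3.34e-10). Gzmb was at 1969.6, 2059, 3039 and 1655 against 1461, 1595, 1947 and 1114, or 0.48 ± 0.04 (edgeR adjusted p 4.41e-08). Gzmk rose by 0.32 ± 0.04 and Gzma by 0.21 ± 0.07. For Gzma the log2 ratio of the classes was 0.68 in replicate 1 and 0.09, 0.05 and 0.14 in the other libraries, and the call was lost without replicate 1. Gzmc, Gzmd, Gzme, Gzmg and Gzmm fell, of which Gzmc, Gzmd and Gzme were higher in the exhausted-high cells of replicate 1, at 33.5, 19.8 and 20.1 CPM against 27.2, 14.9 and 9.24. The Gzme call was lost without replicate 3 and without IgG. So 4 members rose and 5 fell, where 37.7% of all genes changed, 18% up and 19.7% down, and the medians were -0.64 over members and 0.01 over all genes. Exhausted-high cells were shallower, with 0.77 to 0.86 times the median UMI count of the others.

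**Figure D4:**
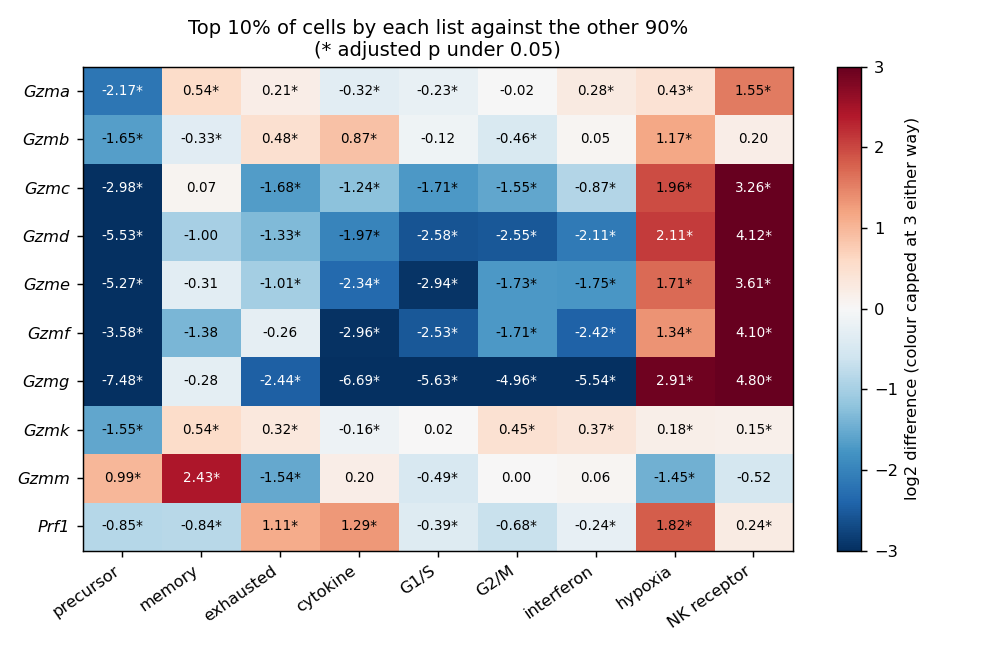
Log2 difference of each member (rows) between the top 10% of cells by each list (columns) and the other 90%, from the edgeR fit over 4 libraries, with an asterisk where the adjusted p was under 0.05 (colour capped at 3 either way). Prf1 is at 1.82, 1.29 and 1.11 in hypoxia-, cytokine- and exhausted-high cells, and 9 of 10 members are negative in precursor-high cells, where the size for Gzmg rests on 0 to 2 UMIs per library.

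Precursor-high cells (Tcf7, Slamf6, Id3, Xcl1, Cxcr5 and Ccr7) were low in granzymes. Gzmb was at 463, 625, 607 and 375 CPM in them and at 1609, 1744, 2211 and 1257 in the others, and fell by 1.65 ± 0.05 on the log2 scale (edgeR adjusted p 5.55e-11). Gzma was at 129.7, 281, 633 and 219 against 942, 813, 2496 and 1419 and fell by 2.17 ± 0.15 (edgeR adjusted p 8.23e-08). Gzmk was at 38.9, 40.3, 68.0 and 37.8 against 143, 156, 167 and 110.2 and fell by 1.55 ± 0.08 (edgeR adjusted p 4.54e-09). For each of these 3 genes, all 4 precursor-high values lay below all 4 others.

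Prf1 fell as well, by 0.85 ± 0.04 on the log2 scale (edgeR adjusted p 2.4e-09), at 297, 324, 405 and 257 CPM against 562, 556, 823 and 498. It was detected in 33.9%, 34.2%, 32.5% and 25.1% of precursor-high cells, against 39.6%, 39.8%, 50.3% and 38.2% of the others, while Gzmb was detected in 22.8%, 30.8%, 30.6% and 21.7% against 59.5%, 59.7%, 67.4% and 52.2%. More precursor-high cells held a Prf1 UMI than a Gzmb UMI, whereas among the others Gzmb was detected more often than Prf1. Gzmc fell by 2.98 ± 0.12, and any of Gzmc to Gzmg was detected in 0.394%, 1.15%, 2.95% and 2.27% against 1.89%, 3.0%, 6.84% and 5.78%. Precursor-high cells held 0, 1, 2 and 0 UMIs of Gzmg, so the size of its fitted difference is not interpretable. Gzmm was higher, at 5.37, 4.99, 6.71 and 10.1 against 4.30, 3.8, 2.42 and 4.79, a log2 difference of 0.99 ± 0.17 (edgeR adjusted p 0.000335). Thus 9 members fell and 1 rose, where 47.3% of all genes changed, 24% down and 23.3% up, with a median log2 difference of -2.58 over members and -0.02 over all genes. Between 20.8% and 26.9% of precursor-high cells were also cytokine-high, whose Prf1 was higher.

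Cells rich in natural killer receptor transcripts (Fcer1g, Tyrobp, Klrb1c, Klre1, Klrk1, Klrd1, Klra7 and Ncr1) had more Gzma and more of the granzymes C to G. Gzma was at 1928, 1359.5, 7561 and 3460.1 CPM against 752, 701, 1783 and 1077, a log2 difference of 1.55 ± 0.12 (edgeR adjusted p 1.6e-06). It was detected in 28.0%, 31.2%, 59.9% and 40.1% against 28.3%, 28.8%, 38.0% and 26.8%, so that detection differed in replicate 3 and IgG and little in replicates 1 and 2. Gzmc was at 81.5, 312, 1081 and 773 against 22.0, 20.8, 81.1 and 93.6, or 3.26 ± 0.22 (edgeR adjusted p 3.72e-07). Gzmd, Gzme, Gzmf and Gzmg differed by 4.12 ± 0.14, 3.61 ± 0.09, 4.10 ± 0.16 and 4.80 ± 0.38. The sizes of these differences can rest on few cells. In replicate 1 Gzmg had 39 UMIs in the class and 6 in the other cells. Any of Gzmc to Gzmg was detected in 5.91%, 6.15%, 17.9% and 11.7% of receptor-high cells and in 1.27%, 2.44%, 5.18% and 4.73% of the others. Their detection was therefore higher in 4 of 4 libraries, not their level alone.

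Of the cells with at least 10 UMIs of Gzmc to Gzmg, 47.8%, 35.3%, 41.7% and 31.4% were in the receptor-high 10%. Gzmb differed by 0.20 ± 0.11 (edgeR adjusted p 0.173), with receptor-high cells below the others in replicates 1 and 2 and above them in replicate 3 and IgG. Prf1 rose by 0.24 ± 0.04 (edgeR adjusted p 0.000649), and its difference was -0.01 where cells were thinned before they were ranked. Gzmk rose by 0.15 ± 0.04, a call that was lost without IgG. The gamma-delta T list was at 164, 144, 160 and 132 CPM in receptor-high cells against 149, 154, 127 and 103, and at 81.6, 83.3, 103 and 89.6 in the cells with at least 10 UMIs of Gzmc to Gzmg against 152, 154, 131 and 106 in the others. The sum of the list was thus lower in the latter cells of each library. In those of replicate 1, Trdc was at 57.3 against 144.8 CPM and Tcrg-C1 at 0 against 0.953. The list gene Tcrg-C2 went the other way there, at 24.3 against 5.85 CPM, from 14 UMIs. In total 8 members rose and 0 fell, where 30.5% of all genes changed, 14% up and 16.5% down, and the medians were 2.41 over members and 0.01 over all genes.

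Cells rich in memory transcripts (a list that includes Klf2, S1pr1, S1pr4, Il7r and Ly6c2) combined more Gzma, Gzmk and Gzmm with less Prf1. Gzmm was at 17.2, 19.2, 12.5 and 17.9 CPM against 3.29, 2.67, 2.03 and 4.12, a log2 difference of 2.43 ± 0.13 (edgeR adjusted p 7.19e-07), from 67, 70, 91 and 133 UMIs. It was detected in 3.15%, 2.69%, 1.87% and 2.81% against 0.833%, 0.556%, 0.328% and 0.746%. This was the largest rise of Gzmm among the 9 lists. Gzma was at 1213, 1021, 3751 and 1712 against 834, 738, 2162 and 1244, or 0.54 ± 0.06 (edgeR adjusted p 5.08e-05). Gzmk was at 189.9, 232, 208 and 139 against 128, 137, 152 and 98.6, or 0.54 ± 0.05 (edgeR adjusted p 3.63e-05). Both were higher in 4 of 4 libraries.

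Prf1 was at 335, 251, 397 and 371 CPM in memory-high cells against 554, 556, 811 and 482 and fell by 0.84 ± 0.10 (edgeR adjusted p 0.00012). Gzmb fell by 0.33 ± 0.07 (edgeR adjusted p 0.00411), but stood at 1159.8 against 1159.9 in IgG, so that this fall came from the anti-PD-1 libraries. None of Gzmc to Gzmg passed the test. With 3 members higher and 2 lower, where 28.1% of all genes changed, 13.3% up and 14.8% down, the medians were -0.30 over members and -0.01 over all genes. The count of members past the threshold was 8 instead of 5 without IgG. Memory-high cells were shallower, with 0.68 to 0.87 times the median UMI count of the others. Their gamma-delta T list was higher, at 220, 246, 197 and 117 CPM against 145, 145, 124 and 104.8, and its part in these differences was not tested.

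**Figure D5:**
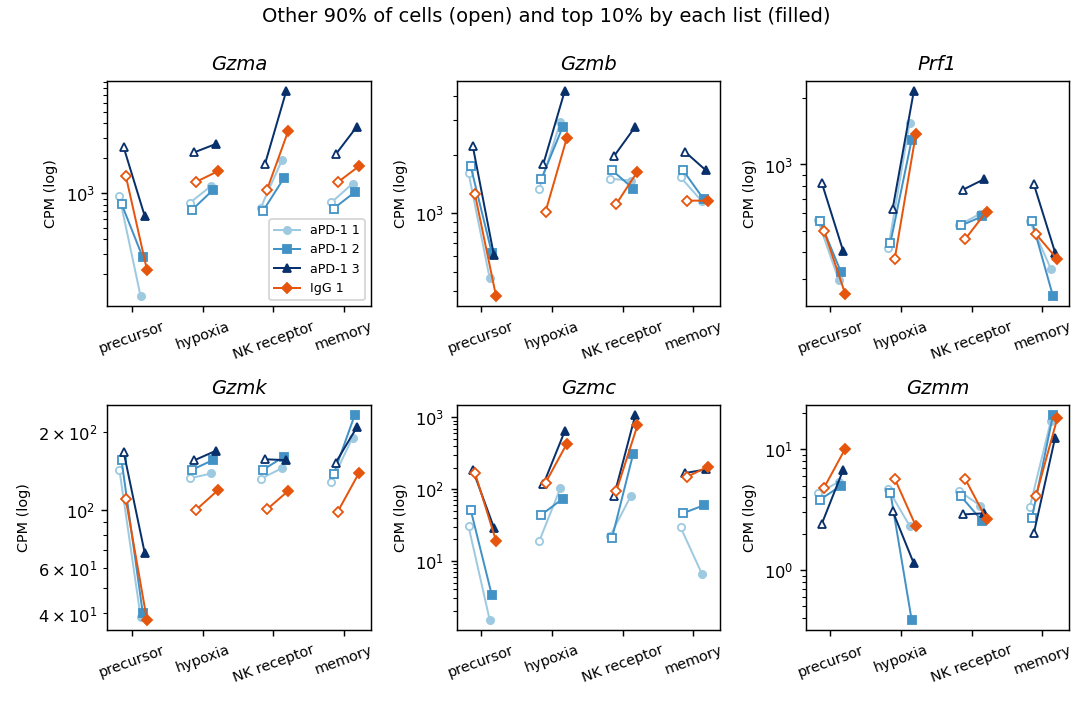
CPM (log axes) of 6 members in the other 90% of cells (open) and in the top 10% (filled) by 4 lists, with lines joining the classes of 1 library. Prf1 rises in all 4 libraries with the hypoxia list and falls with the precursor and memory lists, and Gzmm rises most with the memory list.

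Cycling cells had less Prf1. In cells rich in G2/M transcripts (Mki67, Top2a and others) it was at 380.4, 357, 455 and 313 CPM against 561, 560.4, 830.4 and 498 and fell by 0.68 ± 0.04 (edgeR adjusted p 1.44e-08). Gzmb fell by 0.46 ± 0.04 (edgeR adjusted p 2.78e-06), whereas Gzmk rose by 0.45 ± 0.04 (edgeR adjusted p 3.26e-06), at 173, 208, 191 and 123 against 127, 134, 151 and 98.8. Gzmk was thus higher in these cells of each library. Gzmc to Gzmf fell, with log2 differences of -1.55, -2.55, -1.73 and -1.71, and Gzmg, with 2, 4, 11 and 7 UMIs in the class, fell too, although Gzmf was higher in replicate 1, at 60.5 against 31.0, and its call was lost without IgG. So 1 member rose and 7 fell, where 42% of all genes changed, 20.8% up and 21.2% down.

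In cells rich in G1/S transcripts (the Mcm genes, Pcna and others), Prf1 fell by 0.39 ± 0.05 and Gzma by 0.23 ± 0.05 (edgeR adjusted p 1.2e-06 and 0.00114). The log2 ratio of Gzma was -0.00 in replicate 1 and in IgG and -0.39 and -0.42 in replicates 2 and 3, so the fall came from the latter pair. Gzmc to Gzmf fell, with log2 differences of -1.71, -2.58, -2.94 and -2.53, Gzmg fell with 0, 4, 5 and 5 UMIs in the class, and Gzmm fell by 0.49 ± 0.17, a call that was lost without replicate 1 and without replicate 3. Gzmb and Gzmk did not pass, at -0.12 and 0.02. In all, 0 members rose and 8 fell, where 43% of all genes changed, 21.4% up and 21.6% down, and with 5 members past the threshold where cells were thinned before ranking. Cells of both cycling classes were deeper, with 1.28 to 1.57 times the median UMI count of the others. The median over members was -1.11 with the G2/M and -1.10 with the G1/S list, and -0.02 over all genes with each.

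In cells rich in interferon-induced transcripts (Isg15, Ifit1 and others), Gzmk rose by 0.37 ± 0.05 and Gzma by 0.28 ± 0.07 (edgeR adjusted p 2.49e-07 and 0.00228), and Prf1 fell by 0.24 ± 0.03 (adjusted p 5.77e-08). Gzma was at 1527 against 809.7 CPM in replicate 1, and at 836, 2378 and 1337 against 754, 2285 and 1282 in the other libraries. Its rise was thus largest in replicate 1. Gzmc to Gzmf fell, with log2 differences of -0.87, -2.11, -1.75 and -2.42, and Gzmg fell with 0, 7, 0 and 2 UMIs in the class, but Gzmc, Gzmd and Gzme were higher in replicate 1, at 35.4, 19.8 and 18.5 CPM against 27.1, 14.9 and 9.38. Here 2 members rose and 6 fell, where 27.7% of all genes changed, 12.5% up and 15.2% down, with medians of -0.56 over members and 0.01 over all genes. Interferon-high cells were shallower, with 0.65 to 0.88 times the median UMI count of the others. They held a mean of 1.36 to 2.09 genes of the list. Gzmk was also higher, and Prf1 lower, in the fifth of cells with the fewest UMIs than in that with the most. The gamma-delta T list was higher in interferon-high cells too, at 213, 226, 158 and 132 CPM against 146, 147, 127 and 103, and its part was not tested.

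The machinery that loads and releases granules was followed in a list of 38 genes that holds no member, covering serglycin and matrix proteins, granule proteases and their inhibitors, protective serpins, sorting and release factors, other death ligands and transcription factors. In hypoxia-high cells 22 of the 36 tested rose and 3 fell, where 17.6% of all genes rose and 17.4% fell, led by Serpinb6b (0.81 ± 0.05), a serpin, Id2 (0.57 ± 0.03), a transcriptional regulator of effector cells, and the release factor Stx11 (0.95 ± 0.06). In exhausted-high cells 24 rose and 0 fell (18% and 19.7% of all genes), led by Lyst (1.12), whose loss disturbs granule size, Nkg7 (0.56), a granule membrane protein, and Prdm1 (1.04), which encodes Blimp-1. In cytokine-high cells 18 rose and 5 fell (20.2% and 18.2% of all genes), with Srgn (0.67), the proteoglycan core that binds granzymes, Nkg7 (0.51) and M6pr (0.81), a receptor that sorts granzymes. These 3 classes were also those with the largest rises of Prf1.

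In precursor-high cells 13 of 36 pathway genes rose and 15 fell, where 23.3% of all genes rose and 24% fell, with falls of the protease gene Ctsd (-0.93) and of Runx3 (-0.76) and Id2 (-1.06), factors of effector differentiation. In receptor-high cells 18 rose and 3 fell (14% and 16.5% of all genes), led by Serpinb6a (0.93 ± 0.05), Cst7 (0.49 ± 0.03), an inhibitor of granule cathepsins, and Serpinb6b (0.39 ± 0.03). In memory-high cells 7 rose and 13 fell (13.3% and 14.8% of all genes), with rises of Serpinb1a (2.14), Ctsd (0.44) and Eomes (0.44). Memory-high cells were hence among the classes in which more pathway genes fell than rose. Such classes also included the G1/S-high cells, with 2 up and 27 down (21.4% and 21.6% of all genes), among them Srgn (-0.47), Serpinb6b (-0.74) and Nkg7 (-0.25). They included also the G2/M-high cells, with 2 up and 21 down (20.8% and 21.2% of all genes), among them Cst7 (-0.45), Srgn (-0.30) and Nkg7 (-0.24). In interferon-high cells 13 of 37 rose and 4 fell (12.5% and 15.2% of all genes), led by Ctsw (0.35), Serpina3g (0.57) and Tnfsf10 (0.42), which encodes TRAIL. All signed or bracketed values after gene names in these sentences are log2 differences past an edgeR adjusted p of 0.05.

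To ask whether PD-1 blockade changed these transcripts, the sums of the 3 anti-PD-1 libraries were compared with that of the IgG library. Gzmb was at 1723 ± 279 CPM (SD, n = 3) against 1159.9 in IgG and Gzmk at 144.6 ± 11.8 (SD, n = 3) against 102, each higher in 3 of 3 libraries. Their log2 fold changes were 0.58 ± 0.20 and 0.51 ± 0.15, with edgeR unadjusted p of 0.0295 and 0.0149 and adjusted p of 0.986 for each. Prf1 was higher in 3 of 3 libraries as well, by 0.39 ± 0.25 on the log2 scale (edgeR adjusted p 0.986). Gzma, at 1306 ± 856 (SD, n = 3) against 1287, changed by 0.03 ± 0.63, and its anti-PD-1 libraries lay on both sides of IgG. Gzmc changed by -0.91 ± 0.90. No member passed, and of the 13810 genes tested 0% passed (0 genes by edgeR, 282 at an unadjusted p under 0.05, and 5 by DESeq2, of which 0 were members). The granule list had 0 of 37 genes past the threshold. With 1 IgG library, the smallest p of an exact permutation test over libraries is 0.25.

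The anti-PD-1 libraries differed in how they stood to IgG. Replicate 3 was above IgG for 9 of the 10 members, all but Gzmm, while replicates 1 and 2, whose titles share a name, were below IgG for Gzma and for Gzmc to Gzmg. A fit with a term that sets replicates 1 and 2 apart called 9 members where 2.05% of all genes were called. It compares 1 library with 1 library, replicate 3 with IgG, which no label joins, and takes its spread from replicates 1 and 2 alone, so that it is no replicated test of the treatment. Without replicate 3, Gzma was lower with anti-PD-1, by -0.64, and Gzmc by -2.01. The sign of Gzma thus depended on which anti-PD-1 library was set against IgG, and the treatment cannot be told apart from other differences between single libraries.

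Finally, members were compared between cells of each of 82 targets and sgNT cells under anti-PD-1 (sums of at least 10 cells, 1 edgeR fit of 229 sums and 9419 genes, with the library as a block). Of all combinations of target and gene, 0.0509% passed an adjusted p of 0.05, 393 in all. Among the members there were 3 such calls, 2 of Gzmg and 1 of Gzmb. Gzma, Prf1, Gzmk and the other members were called in no target at this threshold, and by edgeR 2, 9 and 5 of the 82 targets had an unadjusted p under 0.05 for Gzma, Prf1 and Gzmk. For Gzmb there were 8, for Gzmm 5, for Gzmf 8, for Gzmg 11, for Gzmc 20, for Gzmd 38 and for Gzme 47. Most log2 differences of Gzmd and Gzme were negative, in 70 and 76 of the 82 targets, with medians of -4.15 and -4.43. All targets were set against the same sgNT sums, so that these counts are not independent of each other, and both genes were held by few cells. In sgNT cells of the anti-PD-1 libraries Gzmd stood at 32.0, 71.1 and 70.6 CPM, against 15.3, 34.5 and 63.9 over all cells. Gzme stood at 29.1, 35.5 and 36.3, against 10.1, 14.2 and 24.8. The same sgNT guide held 35.4% of the Gzme UMIs of replicate 1 in 9 cells and 26.7% of those of replicate 2 in 5 cells. The level of this shared reference can thus be set by a few cells.

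The Gzmg call in sgGldc cells rested on a single cell. The log2 difference was 5.53 ± 0.88 (edgeR adjusted p 7.82e-05, where 0.0106% of all genes were called), and all 1620 Gzmg UMIs came from 1 of 50 cells in replicate 3, with 0 in the other libraries. Such a cell is of the kind described above, in which up to 19.0% of the transcripts belonged to Gzmc to Gzmg. The Gzmb call was a fall by 3.16 ± 0.82 in sgDhodh cells (edgeR adjusted p 0.0488, where 0.34% of all genes were called), and the call was lost without replicate 2 (edgeR adjusted p 0.0522). It rested on 11 cells of replicate 3, at 316 CPM against 2455 in sgNT cells. In the cells outside the fit, sgDhodh stood at 15.7 against 1444 in replicate 1 (3 cells), 4093 against 1992 in replicate 2 (3 cells) and 853 against 1215 in IgG (39 cells). The direction was thus the same in 3 of 4 libraries.

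Spread among nontargeting guides gives a scale for these values. Among the 18 sgNT guides with at least 20 cells in replicate 3, Gzmb ranged from 1412 to 4461 CPM with a median of 2359, Prf1 from 171 to 1496 and Gzma from 1222 to 7312. Gzmc ranged from 0 to 305 among the same guides, and from 0 to 2265 among 30 sgNT guides in IgG. In sgElovl1 cells, the target named in the title of the study, Gzma was at 331, 357, 1821 and 784 CPM against 1187, 782, 2745 and 1319 in sgNT cells. It was lower in 4 of 4 libraries, with a log2 difference of -1.15 ± 0.67 that did not pass (edgeR adjusted p 1). Against the same sgNT sums, Gzma was lower in 57 of the 82 targets, with a median log2 difference of -0.43. Lower Gzma was thus not particular to sgElovl1 cells. Gzmb was at 1479, 1887, 2019 and 1302 against 1444, 1992, 2455 and 1215, and Prf1 at 613, 649, 732 and 512 against 516, 591, 906 and 481. Their log2 differences were -0.12 ± 0.38 and 0.02 ± 0.30 and did not pass, nor did those of the other members.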

How the data were processed

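Gene expression and guide capture libraries (10x Genomics 3′ chemistry with feature barcoding) came from 4 channels, 3 anti-PD-1 and 1 IgG. The authors made the deposited raw UMI counts per feature and barcode with Cell Ranger 3.1.0 against mm10, and guide calls per cell with thresholds set by that tool. The submitters' processing notes also name Seurat and R 3.6.3, and their annotation release is not stated in these sources. Cells with exactly 1 called guide were kept if their log10 UMI count differed from the median of the library by at most 3 median absolute deviations and mitochondrial genes held at most 10%. No doublet caller was run, and 4107 barcodes with more than 1 guide were left out. Total UMIs of kept cells were 48821477, 48182760, 88543446 and 82120349. Exact Clopper-Pearson 95% intervals and the floor of 3 counts, 0.0261% to 0.118% of a library's cells, cover counting error only.

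Counts were summed per library and class, or per target and library with at least 10 cells, and tested with edgeR 4.0.16 (R 4.3.3, limma 3.58.1, quasi-likelihood, filterByExpr, TMM, Benjamini-Hochberg adjustment over all genes of a comparison, threshold 0.05), with DESeq2 1.42.0 as an alternative. The library was a block in the state and knockout fits, since both classes come from the same library. For IgG, with 1 library, the spread was taken from the anti-PD-1 libraries. The methods of the study name 2 independent experiments and 2 batches, but nothing used here states which library came from which, or that the libraries of a treatment came from separate groups of animals, so that p-values measure only the spread between these libraries, which may be technical. List scores were means of log-normalised counts. Scripts were tested on simulated data. Python 3.11.15, numpy 2.4.6, pandas 2.3.3, scipy 1.17.1, matplotlib 3.10.9 and Biopython 1.88 were used. Coordinates are 1-based (GENCODE M21, GRCm38, the build called mm10), and all 10 symbols were matched to a RefSeq promoter. Identity between coding sequences was computed from the longest open reading frame of each transcript.

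The members, marker lists and tests were chosen with earlier results of these data known. All 10 members were named, from the granule list the 3 genes with the smallest p past the threshold, as neighbours the 3 genes with the highest minimum r over libraries, and each target in which a member was called, except 1 target that is not reported here. The sgElovl1 values and the motifs were chosen otherwise, the former for the title of the study and the latter after the promoters were seen.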

Additional observations from a re-analysis of the deposited data

Results flagged for a closer look

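Of 61 differences between a top 10% class and the other cells, each looked at in 4 libraries, 3 had a library far from the others. Chance marks about 1 in 20 such groups, or about as many as were found. The Gzma log2 ratio in exhausted-high cells was 0.68 in anti-PD-1 replicate 1 and 0.05 to 0.14 in the other libraries. In interferon-high cells it was 0.92 in the same library, against 0.06 to 0.15 in the others. The Prf1 log2 ratio in receptor-high cells was 0.41 in IgG and 0.14 to 0.17 in the anti-PD-1 libraries.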

How the results depend on the processing

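Of the 75 state differences of members past the threshold, library sizes without the members and no filter on low counts kept all 75 past it in the same direction, as did normalisation by the DESeq2 size-factor method for 74 and DESeq2 for 62. The top 20% of cells kept 65 and thinning before ranking 63, where the Prf1 difference in receptor-high cells turned to -0.0084. Leaving out each library in turn kept 291 of 300. DESeq2 called 5 members in exhausted-high and 5 in interferon-high cells, the top 20% of cells gave 5 with the interferon list and thinning before ranking 5 with the G1/S list, against 9, 8 and 8 members, respectively. The count with the memory list lay between 5 and 8 when a library was left out. Thin counts limit Gzmd to Gzmg and Gzmm, whose values can rest on a few cells.

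Both classes of a state comparison come from the same library, which is the pairing. With no replicate block, 32 of the 75 differences passed and the members called were 2 (memory), 2 (exhausted), 4 (cytokine), 2 (G1/S), 4 (G2/M), 0 (interferon), 5 (hypoxia) and 3 (NK receptor), while the 10 of the precursor list were all called. With the interferon list and no block, edgeR called 404 of all genes.

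No paired analysis was possible because the treatments share only 1 replicate number, which follows the order of the samples and pairs nothing. Between treatments, the count of members past the threshold was 9 with the term that sets replicates 1 and 2 apart, which compares replicate 3 with IgG alone, and lay between 0 and 8 when an anti-PD-1 library was left out, the 8 without replicate 3, where 3316 of all genes were called. With that term, Gzmc, Gzme and Gzmf turned to 0.14, 0.53 and 0.87, and over all barcodes Gzme and Gzmf to 0.12 and 0.27. Without replicate 3, Gzma, Gzmd and Gzmg were at -0.64, -0.47 and -0.92. Gzme and Gzmf were at 0.21 and 0.35 without replicate 1 and at 0.03 and 0.14 without replicate 2. Over the fits without a library, Gzma ranged from -0.64 to 0.29, Gzmd from -0.47 to 0.51, Gzme from -0.47 to 0.21, Gzmf from -0.89 to 0.35 and Gzmg from -0.92 to 1.30. The cause was not tested.

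Over knockouts, members were called 431 times without the filter on low counts, where 2370 calls were made in all. They were called 6 times without cells holding at least 10 UMIs of the lists other than the T cell list. Those lists include the gamma-delta T list, of which 225, 242 and 282 cells of the anti-PD-1 libraries held at least 10 UMIs. Members were called 2 to 5 times when a library was left out (5 without replicate 2). Without replicate 3, the only library with the cell that holds the UMIs, Gzmg was at -5.79 in sgGldc, against 8.08 without replicate 2. The sgDhodh call was lost without replicate 2 (edgeR adjusted p 0.0522). The DESeq2 alternative for knockouts was not run. Without thinning, the median r over libraries was 0.39 for Gzma with Gzmb, 0.51 for Gzmb with Prf1, 0.10 for Gzma with Prf1 and 0.88 for Gzmd with Gzme.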
